A study of Mus musculus with 12 samples.

Results

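The genes described here are 36 skeletal muscle genes chosen by name, out of 47643 gene IDs in the deposited tables, and each was found. They encode the sarcomere (the contractile unit of striated muscle), the calcium release system that triggers it, the enzymes that fuel it and a muscle ribosomal protein. RNA-seq of mouse skin was made from 4 groups of 3 libraries, all on the C57BL/6 background and all at 10 weeks of age. Skin Adam17 KO and Epidermis Adam17 KO came from mice with a conditional knockout (ADAM17 cKO) of floxed Adam17 alleles by Sox9-Cre, and Skin WT and Epidermis WT came from wild type mice, whose labels do not say whether they carried a floxed allele or Cre. Adam17 encodes a membrane protease that sheds growth factor ligands and cytokines from the cell surface. The Cre recombinase is driven by Sox9, a gene active in the hair follicle lineage, and whether any muscle cell lost the floxed alleles is not recorded in the labels. No agent was given per the labels, and the labels do not tie libraries to single mice, so p-values measure only the spread between these libraries.

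In mice a thin sheet of striated muscle, the panniculus carnosus, lies beneath the dermal fat, and whole skin taken down to that depth carries its RNA, whereas separated epidermis should hold little. A sarcomere is built of thick filaments (myosin and its binding proteins) that slide along thin filaments (actin with nebulin, tropomyosin and troponin) anchored at the Z disc. An action potential is sensed by a membrane channel that opens the release channel of the sarcoplasmic reticulum, the freed calcium binds troponin, and a calcium pump ends the contraction. Fast fibres use their own myosin, troponin and actinin forms, and the panniculus carnosus of mice is largely a fast muscle.

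Libraries held between 12208522 and 16743144 expected counts (reads assigned to genes, in part by probability), and 3 counts correspond to 0.179 to 0.246 CPM (counts scaled to a common library total). Adam17 stood at 46.7, 57.4 and 59.4 CPM in Skin KO 1, 2 and 3, against 70.3, 110 and 108 CPM in Skin WT 1, 2 and 3, and at 39.6, 54.4 and 46.3 CPM in the Epidermis KO libraries, against 73.2, 82.1 and 67.5 CPM in the Epidermis WT libraries. It was lower in every KO library than in every WT library of its tissue. Skin KO 1 and 3 held 1728 and 1034 Y-linked reads and the 3 Epidermis KO libraries held 213 to 1781, whereas Skin KO 2 and all 6 WT libraries held 0. Y-linked reads thus go with the genotype in part in skin and wholly in epidermis. In epidermis the 2 cannot be told apart, and fits that allow for Y-linked reads were run in skin only. Skin WT 1 stood apart from the other skin libraries in muscle RNA, as described next. The count of the 36 genes called in each comparison was therefore also taken without single libraries.

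The 36 genes together took 0.692%, 0.265% and 0.163% of the counts in Skin KO 1, 2 and 3. They took 12.2%, 1.88% and 4.73% of the counts in Skin WT 1, 2 and 3. The mean share was 0.373% ± 0.281 in Skin KO and 6.26% ± 5.30 in Skin WT (SD, n = 3 each), and the groups did not overlap. The spread inside a group was large, with the highest sum 4.25 times the lowest in Skin KO and 6.46 times the lowest in Skin WT. It was also shared by the genes: Skin KO 1 was the highest KO library for all 36, while Skin WT 1 was the highest WT library for 35 of the 36 and Skin WT 2 the lowest for all 36. In bulk tissue fewer muscle fibres and less muscle RNA per fibre cannot be told apart.

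**Figure D1:**
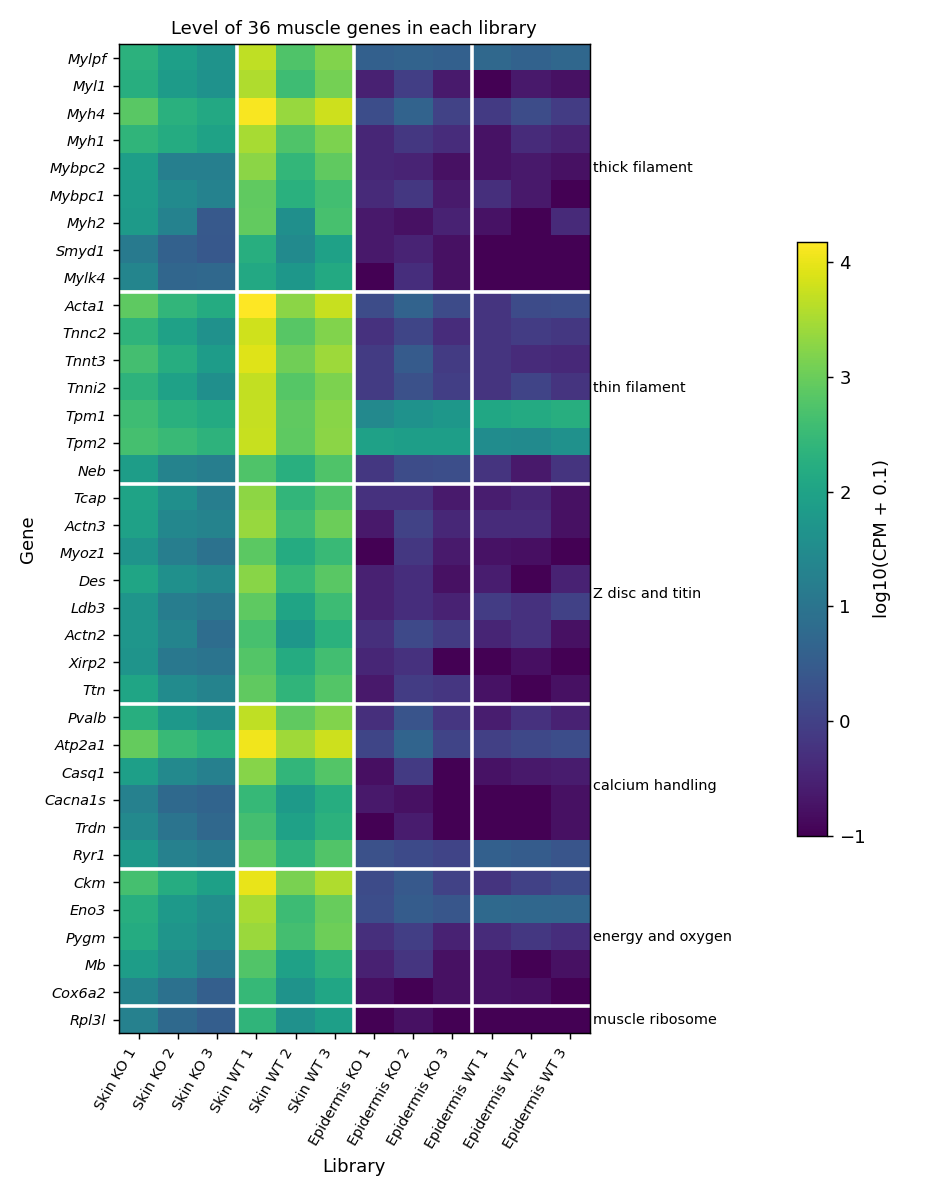
Level of each of the 36 genes (rows, grouped by role and ordered by Skin WT TPM within a role) in each of the 12 libraries (columns), as log10 of CPM plus 0.1. Skin KO libraries are darker than Skin WT libraries, of which Skin WT 1 is brightest, and of the epidermis libraries Tpm1 and Tpm2 are the bright rows.

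In skin, 35 of the 36 genes fell in the KO, 0 rose and 1 (Myh2) did not pass the test (edgeR quasi-likelihood test, Benjamini-Hochberg adjusted p under 0.05). Of all 14906 genes tested, 23.3% were called lower and 22.2% higher. The median log2 fold change, Skin KO over Skin WT, was -4.07 for the 36 genes and 0.00 for all genes tested. It ran from -4.86 for Actn3, 29.0-fold lower in Skin KO, to -2.87 for Mb, 7.31-fold lower. All 3 Skin KO libraries lay below all 3 Skin WT libraries for 35 of the 36 genes, and for 28.8% of all genes tested. Adjusted p-values of the 35 ran from 0.00508 to 0.0322. Every one of the 36 log2 fold changes stayed negative in all 16 alternative fits, but their size rests on single libraries: the median was -3.06 without Skin WT 1, with a range of -3.85 to -1.80, and -5.01 without Skin KO 1, with a range of -5.87 to -3.35.

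Leaving out Skin KO libraries in 2 ways cut the count of 35 by more than 1.5 times. Without Skin KO 2 the count was 23 of 36, and with Skin KO 2 as the lone KO library, which leaves out the 2 KO libraries with Y-linked reads, it was 6 of 36, with the median log2 fold change at -4.65.

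**Figure D2:**
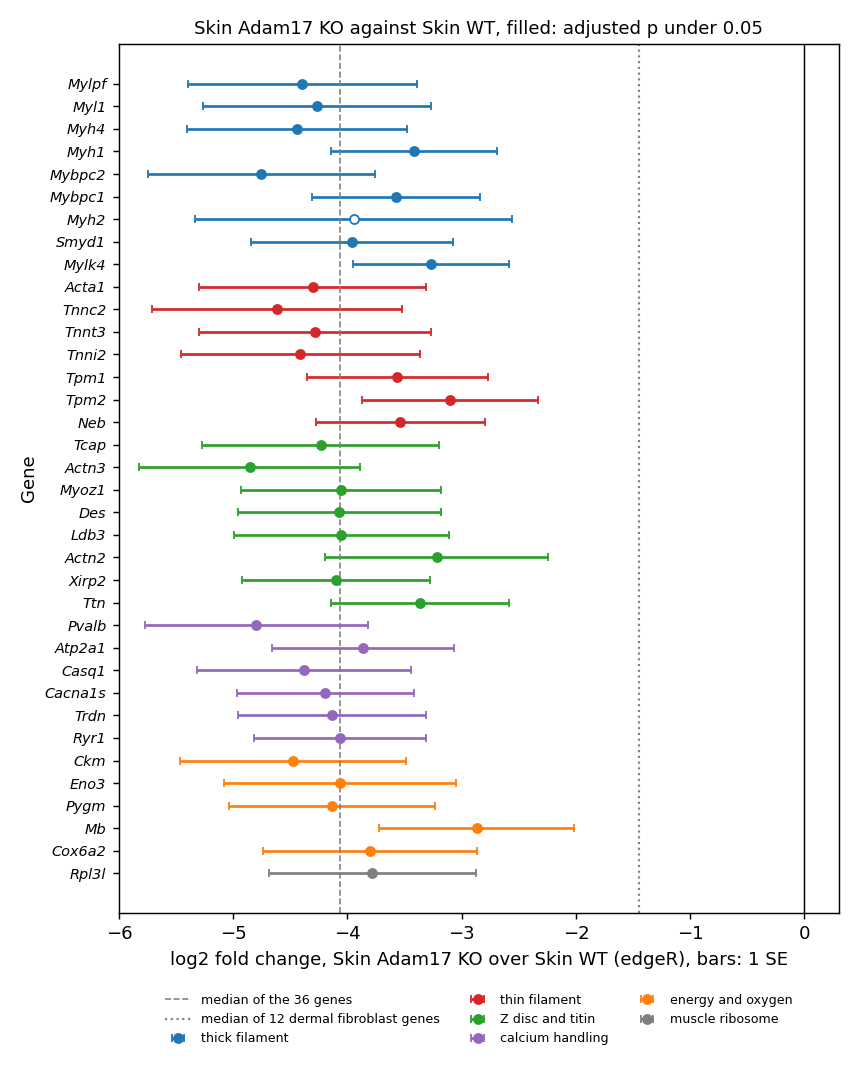
The log2 fold change of each gene, Skin Adam17 KO over Skin WT, from edgeR with 1 SE on either side, coloured by role; filled points have an adjusted p under 0.05. All 36 genes lie between -4.86 and -2.87, to the left of the median of 12 dermal fibroblast genes at -1.45, and Myh2 is the open point.

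Sequences just upstream of these genes are shown for 4 of them, because the 36 genes moved together in skin. Acta1, Myh4 and Ckm are among the most abundant actin, myosin and enzyme genes of the set, and Tpm2 behaved differently in epidermis. The windows come from RefSeq on GRCm38.p6, run from 250 bases before to 50 bases after the start of transcription in the sense of the gene, and lie at chr8:123894726-123895025 on the minus strand for Acta1, chr11:67237562-67237861 on the plus strand for Myh4, chr7:19410844-19411143 on the plus strand for Ckm and chr4:43523505-43523804 on the minus strand for Tpm2. Capitals mark matches, on either strand, to the E-box CANNTG (the motif bound by MyoD family factors, among many others), to the MEF2 site and to the SRF CArG box.
Acta1: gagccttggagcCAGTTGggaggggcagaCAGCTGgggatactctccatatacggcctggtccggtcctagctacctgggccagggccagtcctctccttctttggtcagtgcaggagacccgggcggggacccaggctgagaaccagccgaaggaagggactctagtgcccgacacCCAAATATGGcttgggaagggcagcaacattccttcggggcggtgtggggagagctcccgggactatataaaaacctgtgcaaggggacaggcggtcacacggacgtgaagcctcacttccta
Myh4: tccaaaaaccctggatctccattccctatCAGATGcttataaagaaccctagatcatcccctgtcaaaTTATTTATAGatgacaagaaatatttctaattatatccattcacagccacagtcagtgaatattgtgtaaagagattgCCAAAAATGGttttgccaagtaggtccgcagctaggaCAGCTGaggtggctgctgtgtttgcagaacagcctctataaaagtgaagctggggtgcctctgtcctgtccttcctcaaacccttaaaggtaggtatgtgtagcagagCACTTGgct
Ckm: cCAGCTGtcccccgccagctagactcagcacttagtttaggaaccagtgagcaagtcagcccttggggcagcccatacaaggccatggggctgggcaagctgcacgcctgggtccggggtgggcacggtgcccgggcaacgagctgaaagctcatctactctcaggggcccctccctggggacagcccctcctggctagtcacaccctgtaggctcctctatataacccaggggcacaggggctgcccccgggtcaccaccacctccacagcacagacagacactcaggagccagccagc
Tpm2: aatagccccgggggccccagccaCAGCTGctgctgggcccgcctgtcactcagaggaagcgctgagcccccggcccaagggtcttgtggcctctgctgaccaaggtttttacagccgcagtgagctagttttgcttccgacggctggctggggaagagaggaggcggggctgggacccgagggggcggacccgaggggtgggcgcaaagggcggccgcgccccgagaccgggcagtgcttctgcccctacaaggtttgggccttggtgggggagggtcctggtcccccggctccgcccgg
Acta1 held 2 E-boxes and 1 CArG box, Myh4 held 3 E-boxes, 1 MEF2 site and 1 CArG box, and Ckm and Tpm2 held 1 E-box each. The window table had an entry for 28 of the 36 genes, in 33 windows. An E-box of the form CAGCTG, which is a subset of CANNTG, was in 51.5% of the 33 windows and in 16.3% of all 32851 windows. For CANNTG the shares were 78.8% and 72.3%, for the MEF2 site 21.2% and 1.86%, and for the CArG box 12.1% and 1.63%. A match is a string of letters and not a measured binding site.

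Of the 9 thick filament genes 8 fell in Skin KO, with a median log2 fold change of -3.96. Mylpf, the fast regulatory myosin light chain, had the highest level of them per length, with 243 ± 178 TPM in Skin KO and 4831 ± 4319 TPM in Skin WT (a level corrected for gene length, SD, n = 3 each). It stood at 212, 84.98 and 45.5 CPM in Skin KO 1, 2 and 3, against 4843, 555 and 1536 CPM in Skin WT 1, 2 and 3. The log2 fold change was -4.40 ± 1.00 (SE, edgeR adjusted p = 0.0112), and the lowest WT library was above the highest KO library. Myl1, the fast essential light chain, had 174, 69.5 and 42.9 CPM in Skin KO, against 3682, 368 and 1244 CPM in Skin WT. It fell by 4.26 ± 1.00 on the log2 scale (adjusted p = 0.0122, edgeR).

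The fast myosin heavy chains Myh2, Myh1 and Myh4 (types IIa, IIx and IIb) lie in tandem on chromosome 11 of GRCm38, at 67171027-67197517, 67200052-67224575 and 67238029-67260446, and are close paralogs whose shared reads RSEM divides between them. Myh4 had 720.3, 189 and 131 CPM in Skin KO, against 13610, 2361 and 6092 CPM in Skin WT, and fell by 4.44 ± 0.96 on the log2 scale (edgeR adjusted p = 0.00915). For Myh1 the values were 243, 152 and 94.7 CPM in Skin KO and 3143, 558.5 and 1439 CPM in Skin WT, with a log2 fold change of -3.42 ± 0.73 (edgeR adjusted p = 0.00845). Neither gene's groups overlapped. Myh2 did not pass, at 66.6, 20.01 and 2.67 CPM in Skin KO and 842, 37.2 and 465 CPM in Skin WT (log2 fold change -3.95 ± 1.39, edgeR adjusted p = 0.0532). Skin KO 1 lay above Skin WT 2 for this gene, and Myh2 was the one gene of the 36 whose skin groups overlapped. It was called lower in 6 of the 16 alternative fits. The remaining thick filament genes all fell: Mybpc1 and Mybpc2 (slow and fast myosin binding protein C), Mylk4 (a myosin light chain kinase family member) and Smyd1 (a methyltransferase needed for myofibril assembly), with log2 fold changes of -3.57, -4.76, -3.27 and -3.96.

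The shares of the 3 heavy chains were also set side by side. Myh4 made up 69.9%, 52.1% and 57.4% of the summed TPM of Myh1, Myh2 and Myh4 in Skin KO, against 77.3%, 79.9% and 76.2% in Skin WT. Myh1 made up 23.7%, 42.4% and 41.4% in Skin KO, against 17.9%, 18.8% and 18.0% in Skin WT. For both genes the groups did not overlap. A two-sided exact permutation test gave p = 0.1, the smallest that 3 against 3 libraries allow, and if the library numbers are taken as pairs the smallest possible exact p is 0.25, so neither difference could pass. The share of Myh2 overlapped between the groups (1.18% to 6.47% in Skin KO and 1.25% to 5.79% in Skin WT, exact permutation p = 0.8). The slow heavy chain Myh7 had 0 reads in all 12 libraries, which allows up to 0.246 CPM in the shallowest library. Embryonic Myh3 did not exceed 0.628 CPM in any library. Neonatal Myh8 had 0.161, 0.239 and 0.0725 CPM in Skin KO, against 2.91, 1.69 and 1.199 CPM in Skin WT (log2 fold change -3.57 ± 0.64, edgeR adjusted p = 0.00448).

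All 7 thin filament genes fell in Skin KO, with a median log2 fold change of -4.28. Acta1, skeletal muscle alpha-actin and the most abundant of the 36 genes per length in both skin groups (375.5 ± 311 TPM in Skin KO and 7382 ± 6123 TPM in Skin WT, SD, n = 3 each), had 769.5, 254 and 156 CPM in Skin KO, against 15030, 1897 and 5636 CPM in Skin WT. Its log2 fold change was -4.31 ± 0.99 (edgeR adjusted p = 0.0116). The 3 genes of the fast troponin complex, which lets calcium switch the thin filament on, all fell. Tnnc2, the calcium-binding subunit, had 231, 90.7 and 41.0 CPM in Skin KO, against 6283, 665 and 1542 CPM in Skin WT (log2 fold change -4.61 ± 1.09, edgeR adjusted p = 0.0129). Tnni2, the inhibitory subunit, had 225, 90.3 and 36.9 CPM in Skin KO, against 5135, 636 and 1431 CPM in Skin WT (log2 fold change -4.41 ± 1.05, edgeR adjusted p = 0.0130). Tnnt3, the subunit that binds tropomyosin, had 424, 164 and 71.2 CPM in Skin KO, against 8542, 1152 and 2681 CPM in Skin WT (log2 fold change -4.28 ± 1.01, edgeR adjusted p = 0.0127). No group overlapped in any of the 3, and Tnni2 and Tnnt3 are neighbours on chromosome 7.

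The tropomyosins, rods that cover the myosin sites on actin, fell too. Tropomyosin genes also give rise to non-muscle forms through other promoters and exons, and gene-level counts do not separate the forms. Tpm1 had 363, 189 and 146 CPM in Skin KO, against 5315, 831 and 1833 CPM in Skin WT, with a log2 fold change of -3.56 ± 0.79 (edgeR adjusted p = 0.0102). Tpm2 had 440.5, 327 and 222 CPM in Skin KO, against 5565, 798 and 1854 CPM in Skin WT, with a log2 fold change of -3.10 ± 0.77 (edgeR adjusted p = 0.0152). In both genes the lowest WT library was above every KO library. Nebulin (Neb), the giant protein that runs along the thin filament, fell by 3.54 on the log2 scale.

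All 8 genes of the Z disc and titin fell, with a median log2 fold change of -4.06. Tcap, telethonin, which caps titin at the Z disc, had 101, 38.3 and 16.4 CPM in Skin KO, against 2006, 253 and 556 CPM in Skin WT (log2 fold change -4.23 ± 1.04, edgeR adjusted p = 0.0147). Actn3, the alpha-actinin of fast fibres, fell the most of the 36 genes. It stood at 92.2, 24.2 and 20.4 CPM in Skin KO, against 2431, 373 and 1055 CPM in Skin WT (log2 fold change -4.86 ± 0.97, edgeR adjusted p = 0.00675). Myoz1, a calcineurin-binding Z disc protein of fast fibres, had 48.8, 16.4 and 8.89 CPM in Skin KO, against 737, 152 and 318 CPM in Skin WT (log2 fold change -4.06 ± 0.87, edgeR adjusted p = 0.00892). Desmin (Des), the intermediate filament that ties Z discs together and is also made by smooth muscle, had 109, 39.0 and 26.5 CPM in Skin KO, against 1845, 300.1 and 704 CPM in Skin WT (log2 fold change -4.07 ± 0.89, edgeR adjusted p = 0.00924). The groups were separate in all 4. Actn2, the alpha-actinin of all striated fibres, fell by 3.22 ± 0.98 on the log2 scale (edgeR adjusted p = 0.0322), the largest p of the 35. Its call was lost without Skin WT 1 and without Skin WT 3. Ldb3 (a Z disc adaptor), Ttn (titin, the molecular spring of the sarcomere) and Xirp2 (an actin-binding repeat protein) fell by 4.05, 3.37 and 4.10 on the log2 scale.

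The 6 genes of calcium handling all fell, with the highest adjusted p at 0.00863 and a median log2 fold change of -4.16. Pvalb, parvalbumin, a calcium buffer that speeds relaxation in fast fibres, had 177, 57.8 and 35.5 CPM in Skin KO, against 4899, 804 and 1552 CPM in Skin WT (log2 fold change -4.80 ± 0.98, edgeR adjusted p = 0.00738). Atp2a1, the calcium pump of fast sarcoplasmic reticulum (SERCA1), had 910.1, 302 and 206 CPM in Skin KO, against 11460, 2797 and 6147 CPM in Skin WT (log2 fold change -3.87 ± 0.80, edgeR adjusted p = 0.00767). Casq1, the calcium store protein calsequestrin, had 82.0, 27.3 and 18.0 CPM in Skin KO, against 1693, 261 and 615 CPM in Skin WT (log2 fold change -4.38 ± 0.93, edgeR adjusted p = 0.00863). These proteins buffer, pump or store calcium, and for each gene the highest KO library was below the lowest WT library. Cacna1s, the voltage sensor of the T tubule, had 18.6, 5.82 and 4.66 CPM in Skin KO, against 289, 67.5 and 169 CPM in Skin WT (log2 fold change -4.20 ± 0.78, edgeR adjusted p = 0.00512). Ryr1, the calcium release channel it opens, had 60.5, 18.9 and 13.7 CPM in Skin KO, against 758, 218 and 582 CPM in Skin WT (log2 fold change -4.06 ± 0.75, edgeR adjusted p = 0.00508, the smallest of the 36). Trdn, triadin, which links the release channel to calsequestrin, fell by 4.13 on the log2 scale.

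Of energy and oxygen supply, all 5 genes fell, with a median log2 fold change of -4.07. Ckm, muscle creatine kinase, had 452, 162 and 85.5 CPM in Skin KO, against 10080, 1397 and 3571 CPM in Skin WT (log2 fold change -4.48 ± 0.99, edgeR adjusted p = 0.00987). Eno3, the muscle enolase of glycolysis, had 179.7, 59.3 and 35.3 CPM in Skin KO, against 3098, 357 and 961 CPM in Skin WT (log2 fold change -4.07 ± 1.02, edgeR adjusted p = 0.0157). Pygm, muscle glycogen phosphorylase, had 155, 49.7 and 30.8 CPM in Skin KO, against 2503, 436 and 1105 CPM in Skin WT (log2 fold change -4.14 ± 0.91, edgeR adjusted p = 0.00948). None of the 3 overlapped between groups. Myoglobin (Mb), the oxygen store of oxidative fibres, fell the least of the 36 genes. It had 74.3, 36.7 and 14.6 CPM in Skin KO, against 577, 90.4 and 225 CPM in Skin WT (log2 fold change -2.87 ± 0.86, edgeR adjusted p = 0.0301), and Skin WT 2 was not far above Skin KO 1. Its call, like that of Actn2, was lost in 6 of the 16 alternative fits, among them the fits without Skin WT 1 and without Skin WT 3. Cox6a2, the muscle form of a cytochrome oxidase subunit, fell by 3.80 on the log2 scale. Rpl3l, the striated muscle paralog of ribosomal protein L3, had 18.4, 5.82 and 3.44 CPM in Skin KO, against 243, 42.2 and 83.7 CPM in Skin WT (log2 fold change -3.78 ± 0.91, edgeR adjusted p = 0.0136).

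Since the 36 genes moved together between libraries, each was also set against the mean log2 level of the 36 in its own library. This removes a change shared by all 36. The amount of muscle RNA can remain in the relative level of a gene also read outside muscle, such as Tpm1 or Tpm2. Tpm2 stood at 2.03, 3.11 and 3.32 on this scale in Skin KO 1, 2 and 3, whose summed muscle level fell in that order. The comparison is a description and was not tested. The genes are ordered here by the difference between the group means, and the largest negative differences were those of Actn3, Mybpc2, Pvalb and Myh4. On this relative log2 scale Actn3 stood at -0.33 ± 0.27 in Skin KO and 0.54 ± 0.05 in Skin WT (SD, n = 3 each). Mybpc2 stood at -0.65 ± 0.42 in Skin KO and 0.13 ± 0.11 in Skin WT, and Pvalb at 0.67 ± 0.05 in Skin KO and 1.43 ± 0.26 in Skin WT. On this scale 8 of the 36 genes had every KO library below every WT library, 5 had every KO library above, and 23 overlapped. The scale is centred on the same 36 genes, so some must stand relatively lower and others higher. No share over all genes was taken on this scale, so these counts are a description only. Besides Actn3, Mybpc2, Pvalb and Myh4, the 8 held Ckm, Casq1, Trdn and Pygm, with differences of -0.41, -0.32, -0.23 and -0.18. Some other genes of fast fibres did not share this direction: Myh1 stood relatively higher in KO, and Mylpf, Tnni2, Tnnt3 and Atp2a1 overlapped between the groups. The largest positive differences were those of Tpm2, Mb, Actn2, Myh1 and Tpm1, at 1.25, 1.19, 0.80, 0.75 and 0.70 on the log2 scale. Over the 6 epidermis libraries these genes averaged 59.0 CPM for Tpm2, 0.157 for Mb, 0.521 for Actn2, 0.306 for Myh1 and 94.4 for Tpm1. What part reads from outside muscle have in the relative differences was not tested.

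**Figure D3:**
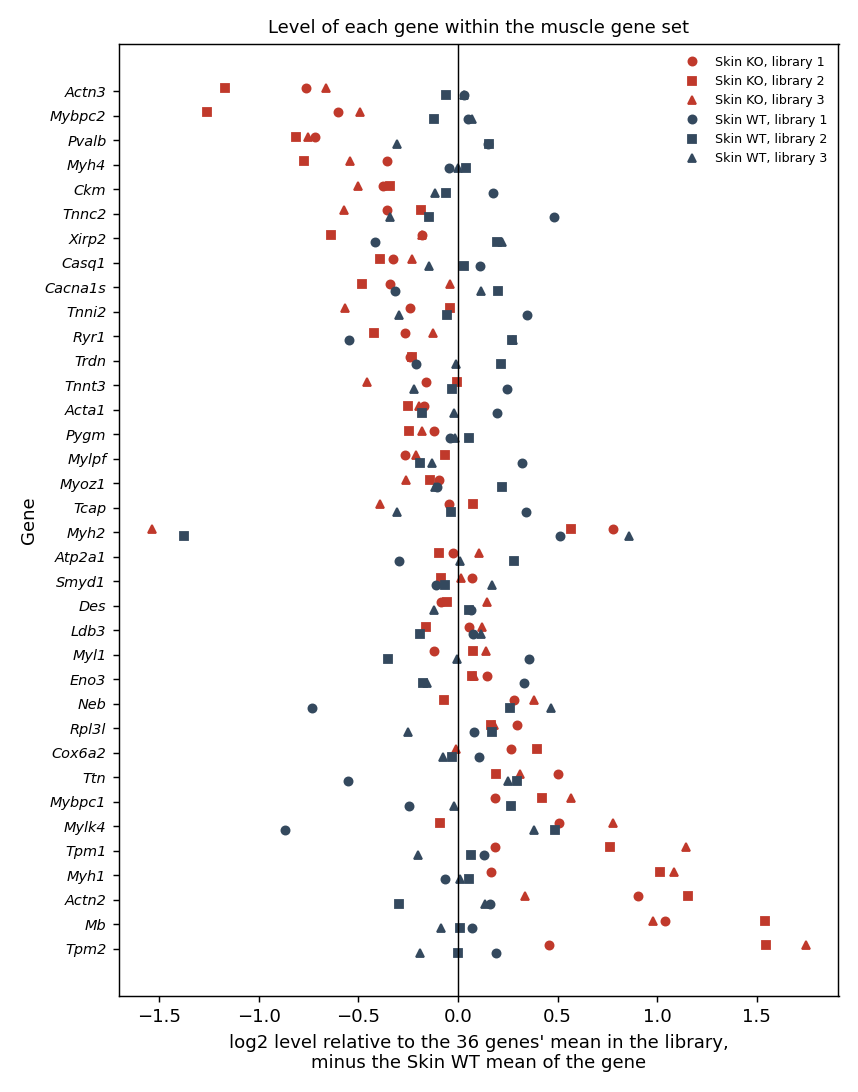
Level of each gene relative to the mean log2 CPM of the 36 genes in the same library, for Skin KO (red) and Skin WT (dark) libraries, with the gene's Skin WT mean set to 0. Genes are ordered by the difference between the groups, from Actn3, lower in KO by 0.86, to Tpm2, higher in KO by 1.25.

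Within a library, a ratio of paired forms does not depend on the scaling of the library. Actn3 over Actn2, by TPM, was 2.90, 1.86 and 4.38 in Skin KO, against 8.35, 9.11 and 7 in Skin WT. Mybpc2 over Mybpc1 was 0.872, 0.431 and 0.727 in Skin KO, against 1.79, 1.40 and 1.89 in Skin WT. In both ratios the KO libraries all lay below the WT ones. The 4 genes come from different ends of the order above, so the ratios restate it. A two-sided exact permutation test of the log2 ratios gave p = 0.1 for each, the smallest that 3 against 3 libraries allow. If the library numbers are taken as pairs the smallest possible exact p is 0.25, so neither ratio could pass.

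Lists of other muscle genes were set beside the 36. In skin 23.3% of all 14906 genes tested were called lower and 22.2% higher, and the list counts stand beside those shares. Of 16 other sarcomere genes tested in skin all 16 fell (median log2 fold change -3.78), as did all 12 tested genes of excitation and calcium (-3.81) and all 12 of muscle metabolism (-3.66). Of myogenic regulators and satellite cell genes 7 of 9 tested fell (median -3.79), and 3 of the 12 listed were too low to test. Myod1, the founding myogenic factor, had 0.398, 0.0787 and 0.215 CPM in Skin KO, against 5.44, 1.91 and 2.51 CPM in Skin WT (log2 fold change -3.79 ± 0.70, edgeR adjusted p = 0.00512). Of slow-type and developmental genes 3 of 6 tested fell and 1 rose. The gene that rose was the tropomyosin Tpm3 (log2 fold change 0.58). In that list 7 of the 13 genes were too low to test, among them Myh7, Myl2, Myl3, Tnnc1, Tnni1 and Tnnt1. Of neuromuscular junction genes 3 of 5 tested fell, of the dystrophin complex 7 of 9, and of muscle atrophy genes 4 of 7 fell and 1 rose. Of the cardiac muscle list 3 genes could be tested, and 2 fell. The one that rose was Nppb, which encodes the natriuretic peptide BNP and was at 8.35, 13.7 and 13.7 CPM in Skin KO, against 1 read in each Skin WT library. Nppb passed the expression filter only through its Skin KO reads, so no p-value is given. Without Skin KO 2 only 6 of the 12 metabolism genes and 4 of the dystrophin complex were called lower. Without Skin KO 3 the dystrophin complex also gave 4 and the rise in the slow-type list was lost, as it was without Skin KO 2. Without Skin WT 2 the slow-type list gave 5 lower genes and the neuromuscular junction list 7 of 7 tested, and of the cardiac list 1 gene in place of 2 was lower without any one of Skin KO 2, Skin KO 3, Skin WT 1 and Skin WT 3.

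Markers of the other tissues of the deeper skin were lower as well, with smaller medians. The shares over all genes tested in skin were 23.3% lower and 22.2% higher. Of 12 adipocyte genes all 12 fell (median log2 fold change -2.71), and their summed level was 605 to 966 CPM in Skin KO and 3515 to 4743 CPM in Skin WT. Of 12 dermal fibroblast and matrix genes 9 fell (median -1.45, summed 1259 to 2573 CPM in Skin KO and 3062 to 4588 CPM in Skin WT), and of 10 endothelial genes all 10 fell (median -1.57, summed 54.7 to 74.1 CPM in Skin KO and 170 to 197 CPM in Skin WT). Of 8 Schwann cell and nerve genes 7 fell (median -1.996, summed 92.7 to 112 CPM in Skin KO and 298 to 329 CPM in Skin WT), and of 13 smooth muscle and pericyte genes, a list that also holds Des, 10 fell (median -1.85, summed 139 to 244 CPM in Skin KO and 589 to 2386 CPM in Skin WT). Keratinocyte genes did not share this direction, with 2 of 10 lower and 4 higher and a summed level of 55150 to 64650 CPM in Skin KO and 32040 to 43320 CPM in Skin WT. No gene of these 6 lists was at 0 in all libraries. Between the Skin WT libraries the summed adipocyte, fibroblast, endothelial and nerve levels differed by at most 1.498 times, the smooth muscle and pericyte sum by 4.05 times and the sum of the 36 muscle genes by 6.46 times. Des, which is among the 36, stood at 1845, 300.1 and 704 CPM in Skin WT 1, 2 and 3. The smooth muscle and pericyte sums that hold it were 2386, 589 and 1168 CPM there, so their spread is in large part that of Des. Between the Skin KO libraries the fibroblast sum differed by 2.04 times and the muscle sum by 4.25 times. When the libraries were scaled to the fibroblast list, all 36 muscle genes were lower in Skin KO with a median log2 fold change of -2.46, and the median of all genes stood at 1.46 on that scale. Such a scaling moves all genes alike and says only that the muscle genes fell more than the fibroblast list; the adipocyte list, which fell more than the fibroblast list, was not used for scaling. What part the amount of deep tissue in a sample has in the fall of the muscle genes was not tested.

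**Figure D4:**
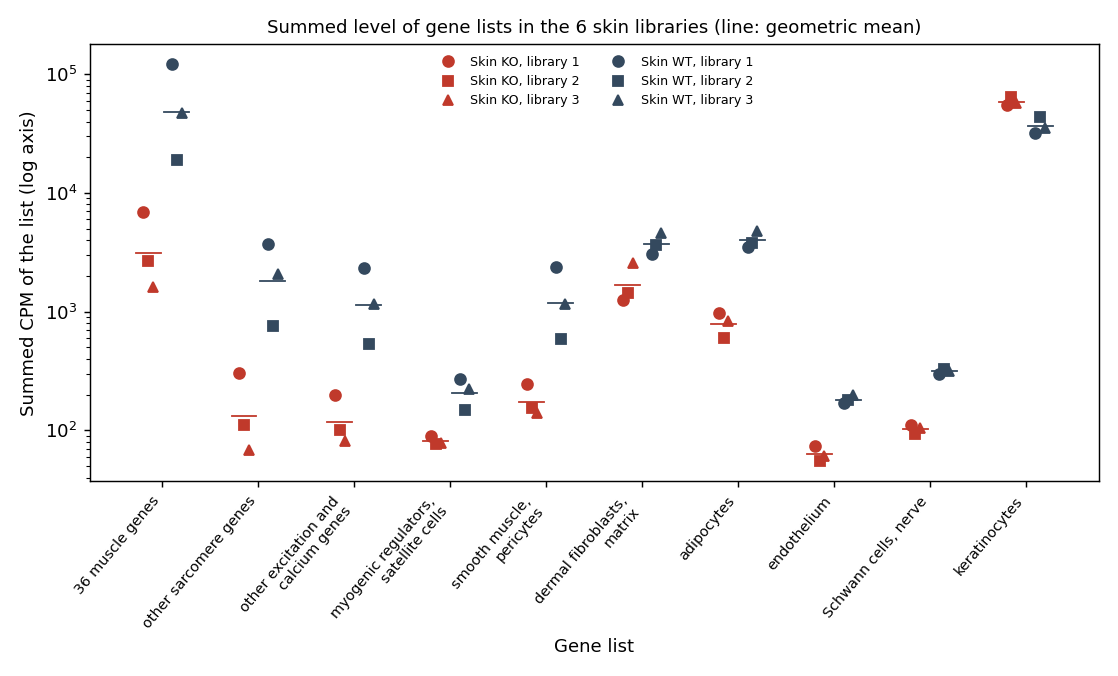
Summed CPM of gene lists (log axis) in the 3 Skin KO libraries (red, left of each pair) and the 3 Skin WT libraries (dark, right), with lines at the geometric means. The 36 genes, other sarcomere genes and excitation and calcium genes spread 2.45 to 6.46 times inside a group and lie lower in KO. The myogenic list also lies lower in KO, with a spread of 1.16 times in KO and 1.83 times in WT. Adipocyte, endothelial and nerve lists lie lower in KO with little spread, and keratinocyte genes lie higher in KO.

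Epidermis held almost none of this RNA. The 36 genes took 0.0136%, 0.0169% and 0.0152% of the counts in Epidermis KO 1, 2 and 3 and 0.0176%, 0.0199% and 0.0240% in Epidermis WT 1, 2 and 3. Tpm1 and Tpm2 made up most of it: without them the remaining 34 genes summed to 19.4, 44.8 and 19.0 CPM in the Epidermis KO libraries and to 22.6, 23.3 and 22.6 CPM in the Epidermis WT libraries. Each of 21 genes stayed under 1 CPM in all 6 epidermis libraries, and Mylk4, Smyd1 and Rpl3l had 0 reads in all 3 Epidermis WT libraries. All 36 genes were lower in Epidermis WT than in Skin WT (25.3% of 14596 genes tested were called lower and 17.6% higher), with a median log2 fold change of -12.26, or -12.22 when genes without a read are set at their bound of 3 reads over the group. All 36 were also lower in Epidermis KO than in Skin KO (15.9% of 14117 genes called lower and 14.1% higher), with a median of -6.73. The 26 genes with too few reads to test between the epidermis groups entered both comparisons largely through their skin reads. For these 26 a call of lower was close to fixed in advance, and the size of the difference rests on few epidermis reads. Tpm1 and Tpm2 had the smallest tissue differences in both genotypes, with log2 fold changes of -2.21 and -1.69 in KO and of -4.04 and -6.16 in WT.

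Between the epidermis groups only 10 of the 36 genes had enough reads to test, and of these 3 fell in KO, 1 rose and 6 did not pass. Of all 13632 genes tested, 25.3% were called lower and 26.2% higher. Y-linked reads were in every Epidermis KO library and in no Epidermis WT library, so they cannot be told apart from genotype here. The tropomyosins moved in opposite directions. Tpm1 had 26.8, 42.9 and 55.2 CPM in Epidermis KO 1, 2 and 3, against 119.9, 146 and 176 CPM in Epidermis WT 1, 2 and 3 (log2 fold change -1.84 ± 0.23, edgeR adjusted p = 0.000354). Tpm2 had 89.8, 81.0 and 78.0 CPM in Epidermis KO, against 33.5, 29.8 and 41.6 CPM in Epidermis WT (log2 fold change 1.26 ± 0.18, edgeR adjusted p = 0.000727). Neither gene's groups overlapped. Per length, Tpm1 averaged 29.6 ± 12.03 TPM in Epidermis KO and 99.1 ± 17.04 TPM in Epidermis WT, and Tpm2 averaged 85.3 ± 0.775 TPM in Epidermis KO and 35.1 ± 4.33 TPM in Epidermis WT (SD, n = 3 each), so the order of the pair differed between the groups.

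The 2 other calls rest on few reads. Eno3 had 1.55, 3.13 and 2.28 CPM in Epidermis KO, against 5.73, 5.17 and 4.92 CPM in Epidermis WT (log2 fold change -1.18 ± 0.27, edgeR adjusted p = 0.00591). Ryr1 had 1.81, 1.34 and 1.04 CPM in Epidermis KO, against 3.69, 3.08 and 2.20 CPM in Epidermis WT (log2 fold change -1.05 ± 0.35, edgeR adjusted p = 0.0317). Both were lower in every KO library, yet the call of Ryr1 was lost in 5 of 13 alternative fits and that of Eno3 in 1. In a fit of all 12 libraries, which takes 1 estimate of the spread over both tissues, Tpm1 kept its call and the other 3 lost it.

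The 6 tested genes that did not pass were Mylpf, Myh4, Acta1, Atp2a1, Ckm and Tnni2. Mylpf, the gene with most reads in epidermis after the tropomyosins, had 3.75, 4.40 and 3.73 CPM in Epidermis KO and 5.49, 4.13 and 5.36 CPM in Epidermis WT (log2 fold change -0.32 ± 0.23, edgeR adjusted p = 0.273). Acta1 had 1.49, 4.40 and 1.45 CPM in Epidermis KO and 0.491, 1.44 and 1.54 CPM in Epidermis WT (log2 fold change 1.05 ± 0.56, edgeR adjusted p = 0.144). Epidermis KO 2 was the highest KO library for Acta1 and for 27 of the 36 genes in all. Without it the log2 fold change of Atp2a1, 0.86 in the fit of all 6, was -0.14. The same library also had the highest summed fibroblast level of the Epidermis KO libraries, 374 CPM beside 269 and 216 CPM, against 124 to 161 CPM in the Epidermis WT libraries. Its part in the trace of muscle RNA was not tested.

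**Figure D5:**
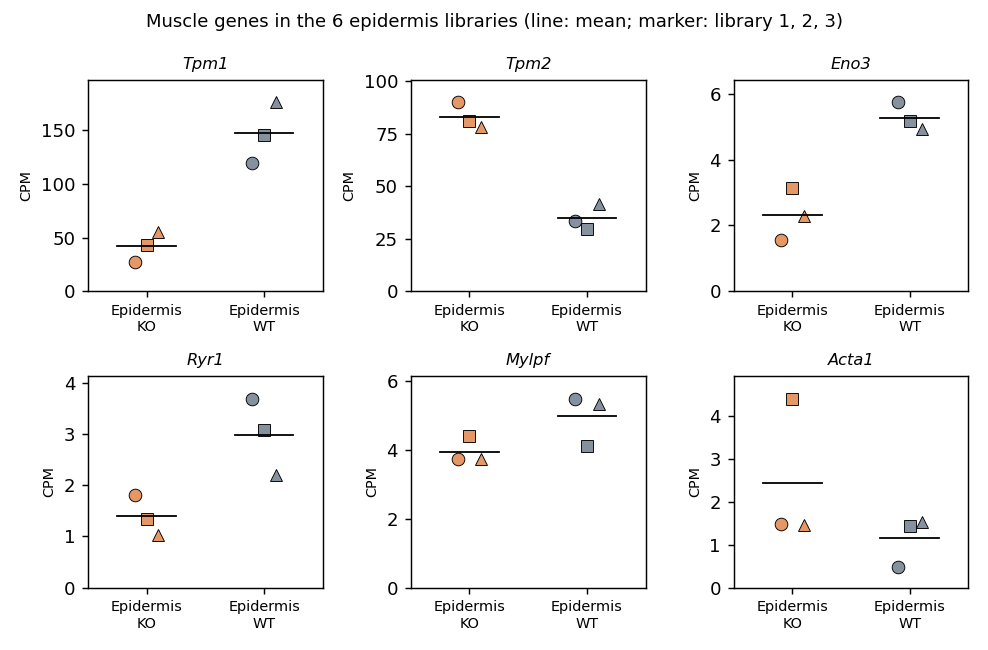
CPM of 6 muscle genes in the 3 Epidermis KO libraries (left) and the 3 Epidermis WT libraries (right) of each panel, with lines at the means and a marker shape for each library number. Tpm1, Eno3 and Ryr1 lie lower and Tpm2 higher in all KO libraries, while Mylpf and Acta1 overlap.

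The genotype effect, epidermis minus skin, was tested in 1 fit of all 12 libraries. It bears on epidermis only for the 10 genes with enough reads there, and 8 of these were called above 0 and 0 below it by edgeR (10.1% and 6.36% of 15394 genes tested). The other 26 genes were in the fit through their skin reads, so their differences largely restate the fall in skin, and the 4 called among them (12 of 36 in all) are not read further. For Tpm2 the difference was 4.43 ± 0.84 on the log2 scale (edgeR adjusted p = 0.00652), with a rise in epidermis and a fall in skin. For Tpm1, which fell in both tissues, it was 1.78 ± 0.83 and not past the threshold (edgeR adjusted p = 0.158). The count of 8 was 9 with DESeq2 and 8 with the replicate number as a block, but 1 with limma-voom, 1 without Epidermis KO 2 and 5 without Skin KO 2 or without any one of the Epidermis WT libraries.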

How the data were processed

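RNA-seq libraries were made from total RNA of whole skin and epidermis with the TruSeq Stranded mRNA kit, as the labels' protocols state. The authors deposited 1 table per library with an expected count (an estimated number of reads) and a TPM value per gene, per the file headers. The submitters' processing notes name bcl2fastq 2.17, STAR 2.5.1, RSEM and mm10. Which annotation was counted, and with what strand setting, is not given in the sources used here, so a gene and its antisense partner may share reads. RSEM divides reads between near-identical genes, and 9 of the 36 muscle genes, the fast myosins among them, had values that were not whole.

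Gene IDs were matched to symbols in GENCODE mouse release 21 (GRCm38): 39106 of 47643 with the version number and 47224 without it. IDs without a symbol, 419 in all, stayed in the library totals and held at most 0.0612% of a library. Expected counts were rounded to whole numbers and tested with edgeR 4.0.16 (R 4.3.3; TMM scaling, default expression filter, quasi-likelihood fit, Benjamini-Hochberg adjustment over all genes tested, threshold 0.05), fitted only on the groups compared. The procedure was tested on simulated data. The SE of a log2 fold change is its size over the square root of the F value. CPM values in the text use total counts, and levels of different genes are compared in TPM as deposited. The relative level adds 0.1 CPM before the logarithm.

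The 36 genes, their roles and the comparison lists were chosen with earlier results of these data known. Library values are given for up to 4 genes of each role with the highest mean TPM in Skin WT, for genes not called in skin, for the largest and smallest fold change, for genes called in epidermis and for the 3 with most CPM there.

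Groups share replicate numbers. Deviations from group means of Skin KO and Skin WT libraries of the same number correlated across genes at 0.358, 0.365 and 0.270, and those of different numbers at -0.480 to 0.156, so the skin numbers were taken as pairs, a choice made from these correlations alone. The fits reported have no block, and the blocked fit gave the same count of 35 in skin. In epidermis the same-number correlations were 0.0948, 0.149 and -0.126, and the numbers were not taken as pairs. Libraries of a group differed by more than counting noise (a chi-square of 12.4 or more for each degree of freedom). Alternatives were DESeq2 1.42.0, limma-voom (limma 3.58.1), RLE scaling, TMM without muscle and keratin genes, no filter, 1 fit of 12 libraries, a replicate block and each library left out. In skin only, they also held scaling to fibroblast genes and Y-linked reads as a covariate or reason for leaving libraries out. Limits and floors cover counting error only.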

Additional observations from a re-analysis of the deposited data

Results flagged for a closer look

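The genotype effect was called different between epidermis and skin for 8 of the 10 muscle genes with enough reads to test in both tissues. The test was edgeR's, of the difference in 1 fit of all 12 libraries. Of all 15394 genes tested, 10.1% were called above 0 and 6.36% below it. The count of 8 was 1 with limma-voom and ran from 1 to 10 when 1 library was left out. The difference of the log2 effects, epidermis minus skin, was 5.71 for Myh4, 5.41 for Acta1, 5.39 for Ckm, 5.16 for Tnni2, 4.79 for Atp2a1, 4.43 for Tpm2, 4.14 for Mylpf and 3.09 for Ryr1. In the separate fit of each tissue Tpm2 passed the test in both with opposite signs. Ryr1 was lower in both, but its epidermis call was lost in 5 of 13 alternative fits, and in the fit of all 12 libraries neither gene kept its epidermis call. The other 6 did not pass in epidermis, so their differences rest largely on the fall in skin. They were low in epidermis: Mylpf did not exceed 5.49 CPM and Acta1 4.40 CPM in any epidermis library. No cause was tested.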

How the results depend on the processing

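In skin the count of 35 lower genes was 30 to 36 under the other tools, scalings and filters, the replicate block (35) and Y-linked reads as a covariate (30). It was 6 without the KO libraries with Y-linked reads, which leaves 1 KO library assumed to vary like the WT ones, and 23 to 36 when 1 library was left out, lowest without Skin KO 2. In epidermis the count of lower genes was 3, but 1 in the fit of all 12 libraries and 2 to 3 when 1 library was left out. The count of higher genes was 1, but 4 with no filter, 0 in the fit of all 12 libraries and 1 to 2 when 1 library was left out. The log2 fold change of Atp2a1 in epidermis ran from -0.14 (without Epidermis KO 2) to 1.23 (without Epidermis KO 3) when 1 library was left out. For the genotype effect, epidermis minus skin, the count of 12 was 30 with DESeq2, 1 with limma-voom and 20 with the replicate block, and 2 to 19 when 1 library was left out. For the 10 genes tested in epidermis alone the count of 8 was 1 with limma-voom, 8 to 9 with DESeq2, the other scalings and filter and the replicate block, and 1 to 10 when 1 library was left out. Both tissue comparisons gave 36 when any 1 library was left out, and 25 with limma-voom for Epidermis KO against Skin KO. The summed share in Epidermis WT was 0.0159% of TPM in place of 0.0205% of counts. The causes were not tested. With the paired fit no other count moved by over 1.5 times. In epidermis, genes at or under 3 counts in a library cannot be compared there at this depth.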

Other observations

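Genes named for muscle outside the 36 did not move one way in epidermis. Of 100 genes in 9 other muscle lists, 32 had enough reads there, and 11 fell and 6 rose in KO (edgeR, adjusted p under 0.05). Of all 13632 genes tested in epidermis, 25.3% were called lower and 26.2% higher. The 17 calls among the 32 are thus near the share over all genes, and the genes below are described singly. Of the genes with the 4 highest Skin WT TPM values of a list, 9 were called. Tmod4, a tropomodulin that caps thin filaments, had 2.004, 5.22 and 4.15 CPM in Epidermis KO, against 27.6, 28.4 and 27.1 CPM in Epidermis WT (log2 fold change -2.88 ± 0.25, edgeR adjusted p = 6.09e-05). Myl4, the atrial and embryonic essential light chain, had 0.453, 0.522 and 0.207 CPM in Epidermis KO, against 3.93, 5.44 and 8.88 CPM in Epidermis WT (log2 fold change -3.92 ± 0.48, edgeR adjusted p = 0.000307). Fbxo32, the ubiquitin ligase atrogin-1, had 21.9, 29.8 and 38.2 CPM in Epidermis KO, against 111, 116 and 76.3 CPM in Epidermis WT (log2 fold change -1.75 ± 0.18, edgeR adjusted p = 0.000127). The cardiac troponins Tnnt2 and Tnni3 fell by 2.64 and 2.61 on the log2 scale and Pfkm, muscle phosphofructokinase, by 0.39.

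The other 3 of the 9 rose. Nppb had 7.05, 10.1 and 5.94 CPM in Epidermis KO and 0 reads in all 3 Epidermis WT libraries, at least 105-fold higher when the WT group is set at 3 reads. It was higher in Skin KO as well. Csrp3, a muscle LIM protein, had 0.841, 2.09 and 1.11 CPM in Epidermis KO and 0 reads in Epidermis WT, at least 18.0-fold higher on the same floor. In skin Csrp3 was called lower in KO, though its groups overlapped there. Nppb and Csrp3 are among the 6 counted as risen, yet they passed the expression filter only through their Epidermis KO reads. No p-value is therefore given for them. Dag1, dystroglycan, rose by 0.76 on the log2 scale. The 8 further calls were lower for Cacnb1 (-1.47), Jph1 (-1.03), Phka1 (-1.95), Myom3 (-0.53) and Foxo1 (-0.56) and higher for Casq2 (3.01), Slc2a4 (1.51) and Asph (0.63), as log2 fold changes. No explanation was tested.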
